A study of Mus musculus with 12 samples.

Results

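Adipose tissue of mice labelled Bbs2-/-, with and without a drug in the feed, was compared with that of wild-type (WT) mice to find differences that go with the genotype label and do not depend on the drug. All 12 libraries of the study took part: 8 labelled Bbs2-/- and 4 labelled WT. The WT group (4 libraries) and the untreated Bbs2-/- group (4 libraries) got no drug. The treated Bbs2-/- group (4 libraries) got Genz-667161, a blocker of glucosylceramide synthase, at 0.033% of the weight of the feed from 2 months of age. Every group was of mixed C57BL/6 x 129/SvJ background, and the tissue was taken at 6 months of age. The study has no treated WT group, so a drug effect without the genotype cannot be told apart from one that needs it. The labels give neither the fat depot nor the sex, and nothing in them ties each library to a mouse of its own. The p-values therefore measure only how the libraries vary, which may be technical in part.

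Bbs2 codes for a part of the BBSome, a coat-like complex that moves membrane receptors out of the primary cilium and takes part in the traffic of receptors such as those for leptin and insulin. People who lack a BBSome subunit develop Bardet-Biedl syndrome, with obesity, loss of sight and kidney disease among its features. Fat cell precursors carry a primary cilium, which is lost as they mature, while mature fat cells respond to insulin by taking up glucose, storing fat and holding back its breakdown.

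The libraries held 16317865 to 20224200 estimated counts. Levels are given as CPM (counts per 1000000 counts) after scaling for library composition, and differences as log2 fold changes against WT. Adipoq, the fat cell hormone adiponectin and a defining marker of the labelled tissue, was at 978 to 4895 CPM over all libraries. Other cell types moved with the groups. The summed level of 20 macrophage markers was 7102 to 9892 CPM in untreated Bbs2-/- libraries, against 857.6 to 3003 CPM in WT and 835.6 to 2073 CPM in treated libraries. WT 1, WT 4, treated 1 and treated 3 held 48, 164, 154 and 140 counts of Foxj1, the master regulator of motile cilia, and the other 8 held at most 2. The summed level of a list of 20 genes of ciliated epithelium does not set these 4 apart. It was 70.86 to 151.3 CPM in WT, 103.4 to 182 CPM in untreated and 72.8 to 129.9 CPM in treated libraries. Such a sum follows its most abundant members. Over the 16 tested members the median log2 fold change was -3.03 untreated and 0.27 treated. In the untreated group 5 of the 16 passed as lower and 0 as higher (19.7 and 19.6% of all tested genes). A list of 17 genes of the male tract and the epididymis, a tissue next to one of the male fat depots, was also summed. It reached 1204 CPM in WT 1, 169.6 CPM in WT 3 and 13.55 CPM in WT 4, and never above 8.176 CPM elsewhere. Only 1 of the 17, Ptgds, passed the filter on low counts, and the part of each gene in the sum is not given here. WT 2 and WT 3 carry library names of another form than the other 10. In bulk tissue, fewer cells of a type and less RNA per cell cannot be told apart.

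The average of both Bbs2-/- groups differed from WT in many genes, but few of these differences were present in each group. Against WT, 2380 of 15968 genes tested (14.9%) passed an adjusted p of 0.05 for the pooled contrast, 1092 higher (6.84%) and 1288 lower (8.07%). That contrast is the mean of the differences of both groups from WT, in edgeR's quasi-likelihood test with Benjamini-Hochberg adjustment. Of the 2380 genes, 1659 did not reach an unadjusted p of 0.05 in treated Bbs2-/- against WT, and 1815 differed between treated and untreated Bbs2-/- at an adjusted p under 0.05. The untreated group alone differed from WT in 6263 genes (39.2%) and the treated group alone in 41 (0.257%), 28 higher (0.175%) and 13 lower (0.0814%). The count of 41 was 3 without WT 2, 8 without WT 3, 14 without WT 4, 17 to 21 without untreated library 2, 3 or 4, and 12 and 10 without treated library 1 and 2. Of all tested genes, 5947 (37.2%) differed between treated and untreated Bbs2-/-, 2947 higher (18.5%) and 3000 lower (18.8%) in treated. With unadjusted p-values, 806 genes (5.05%) were under 0.05 on the same side in each group, 391 higher (2.45%) and 415 lower (2.6%). Scaled by library size alone, 69.5% of pooled calls were higher in Bbs2-/-, against 45.9% here, and the median log2 fold change over all genes moved from -0.01 to 0.11. When the 8 Bbs2-/- libraries were taken as 1 group, so that the drug difference entered the spread, 3 genes passed: Net1, Bbs2 and Jade3. The pooled count was 4292 without WT 1, 846 without WT 2, 814 without WT 3, 1348 without WT 4, 1437 without untreated library 2 and 1556 without treated library 1.

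Single genes show how the pooled average is made up. C1qa, a complement gene of macrophages, was at 102 ± 26.8 CPM in WT, 713 ± 155 CPM in untreated and 109.5 ± 31.8 CPM in treated Bbs2-/- libraries (SD, n = 4 each). Its pooled log2 fold change was 1.45 (adjusted p = 0.00344), made of 2.80 in the untreated and 0.10 in the treated group. Adipoq passed the pooled test at -1.22 in the same way, with -2.06 in the untreated and -0.38 in the treated group. For neither gene did the treated group pass its own test against WT (adjusted p = 0.933 and 0.555).

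A stricter rule asked for an adjusted p under 0.05 in each Bbs2-/- group against WT, with the same sign. It was met by 17 of 15968 genes (0.106%), 9 higher (0.0564%) and 8 lower (0.0501%) in both groups. The higher genes were Bbs2, Angptl8, Oxtr, Dnajc6, Rtn4rl2, Wdr86, Zbtb7c, Elmsan1 and Mid1ip1, and the lower ones Chst15, Ccdc3, Grb14, Fam214a, Jade3, Sctr, Pdk4 and Net1. Both tests use the same 4 WT libraries, so a WT library with an unusual level acts on both. In 16 of the 17 genes no Bbs2-/- library overlapped a WT library. The choice of the genes by these same values favours this, so it is no further support. Over all tested genes 313 showed no overlap (1.96%), 157 higher (0.983%) and 156 lower (0.977%) in Bbs2-/-. The 17 genes lie on 12 chromosomes.

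**Figure D1:**
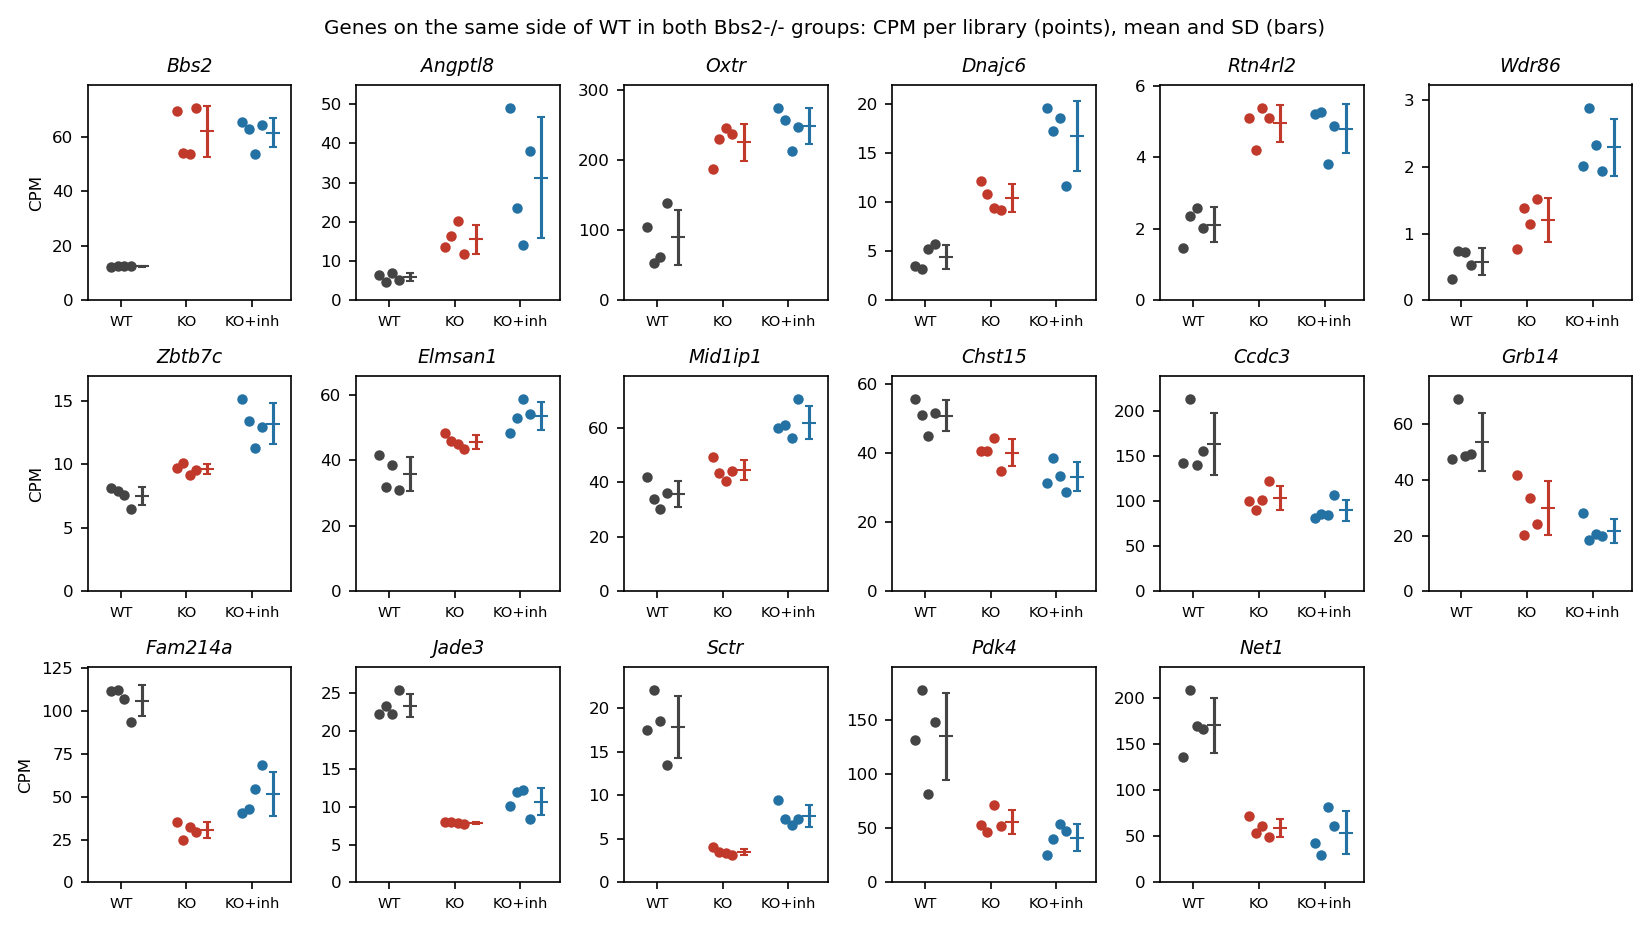
CPM (linear axes from 0) of the 17 genes that differed from WT in the same direction in both Bbs2-/- groups. Points are the 12 libraries, 4 each in WT (grey), untreated Bbs2-/- (KO, red) and inhibitor-treated Bbs2-/- (KO+inh, blue), bars are the mean and SD, and only Mid1ip1 shows a Bbs2-/- library (40.5) below the highest WT library (41.8).

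Bbs2 itself was higher, not lower, in the libraries labelled knockout. Its level was 12.1, 12.5, 12.7 and 12.7 CPM in WT, 69.5, 53.9, 53.7 and 70.6 CPM in untreated and 65.4, 62.7, 53.7 and 64.1 CPM in treated Bbs2-/- libraries. The WT libraries lie within a narrow band, and every Bbs2-/- library is far above it. The log2 fold change was 2.31 (SE 0.11) in the untreated group (adjusted p = 1.62e-06) and 2.30 (SE 0.11) in the treated group (adjusted p = 1.70e-06). The treated minus untreated difference had a 95% interval of -0.24 to 0.22. Which part of the gene was targeted is not stated in the labels, so a count over the whole gene does not check the label, and every direction in this text is between libraries as labelled. Bbs2 lies at chr8:94067954-94098928 (mm10, GENCODE annotation) on the minus strand. Its end faces that of Ogfod1 on the plus strand at chr8:94037198-94067921. Ogfod1, an oxygenase that modifies a ribosomal protein, was at 27.6 ± 4.99 CPM in WT, 22.1 ± 1.80 in untreated and 20.1 ± 2.38 in treated libraries (SD, n = 4 each), and was lower in the pooled test (-0.39, adjusted p = 0.0467). That call was lost when any 1 library other than WT 4 or treated library 3 was left out (adjusted p of 0.0597 to 0.135) and with library size alone (0.158). Whether the counting used strand is not given in the sources used here, and reads where the genes meet could be assigned to either.

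The 250 bases before the start sites of 14 of the 17 genes were found in the RefSeq promoter table (GRCm38.p6). Those of Bbs2 are shown because the gene stands apart from all others, and those of Oxtr and Dnajc6 as examples of genes that rose and hold motifs searched. Rtn4rl2, Wdr86 and Mid1ip1 also rose and hold such motifs. The first listed start site of each gene was used, and the stretches of Bbs2 and Dnajc6 lie inside the spans given for these genes. All are 5′ to 3′ on the strand of the gene, with motif matches in capitals.
Bbs2, chr8:94098510-94098759, minus strand: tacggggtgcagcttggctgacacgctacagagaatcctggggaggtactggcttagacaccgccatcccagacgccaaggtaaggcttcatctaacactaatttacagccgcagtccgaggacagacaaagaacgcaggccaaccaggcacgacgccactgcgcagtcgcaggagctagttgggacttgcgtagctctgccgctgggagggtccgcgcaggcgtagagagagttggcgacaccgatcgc
Oxtr, chr6:112489826-112490075, minus strand: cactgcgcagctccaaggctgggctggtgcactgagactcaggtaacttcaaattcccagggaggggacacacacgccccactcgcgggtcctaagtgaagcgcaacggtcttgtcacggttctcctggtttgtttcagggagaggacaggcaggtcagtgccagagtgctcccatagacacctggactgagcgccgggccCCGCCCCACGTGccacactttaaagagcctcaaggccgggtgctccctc
Dnajc6, chr4:101507726-101507975, plus strand: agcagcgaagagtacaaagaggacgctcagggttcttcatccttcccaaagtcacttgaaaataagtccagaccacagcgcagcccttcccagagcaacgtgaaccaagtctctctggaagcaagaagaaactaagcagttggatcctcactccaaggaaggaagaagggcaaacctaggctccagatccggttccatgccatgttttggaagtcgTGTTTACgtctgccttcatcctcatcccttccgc
Both strands were searched for the E-box CACGTG, the FOXO element GTAAACA and the GC box GGGCGG. Oxtr holds a GC box and an E-box side by side without overlap, Dnajc6 a FOXO element, and Bbs2 none. Of the 14 promoters, 3 hold the E-box, 1 the FOXO element and 8 the GC box. Among all 32851 promoters of the table these shares are 6.02, 3.17 and 32.74%. A match is a description of these letters and not evidence of binding.

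By known role the 17 genes are described in turn, first those that act on insulin signalling and fuel use. Angptl8 (chr9:21835510-21837347), a secreted protein that rises with feeding and insulin and restrains lipoprotein lipase, was higher in both groups. It stood at 6.48, 4.73, 6.97 and 5.29 CPM in WT, 13.7, 16.5, 20.1 and 11.8 CPM in untreated and 49.1, 23.6, 14.1 and 38.1 CPM in treated libraries. The treated libraries spread widely, and all 8 Bbs2-/- libraries lie above all WT libraries. The difference from WT on the log2 scale was 1.40 (SE 0.33) untreated (adjusted p = 0.00639) and 2.41 (SE 0.34) treated (adjusted p = 0.0199).

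Pdk4 (chr6:5483351-5496309) encodes a kinase that shuts off pyruvate dehydrogenase and so favours the burning of fat over glucose. It was at 132, 178, 82.00 and 148 CPM in WT, 52.7, 46.5, 71.5 and 52.2 CPM in untreated and 24.9, 39.6, 53.5 and 47.05 CPM in treated libraries. WT 3 is the lowest of the WT libraries and lies only a little above untreated Bbs2-/- library 3. Relative to WT, the log2 fold change came to -1.28 (SE 0.26) untreated (adjusted p = 0.00279) and -1.71 (SE 0.26) treated (adjusted p = 0.0284).

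Grb14 (chr2:64912476-65024987), an adaptor that binds the insulin receptor and inhibits it, was lower too. Its level was 47.4, 69.1, 48.6 and 49.2 CPM in WT, 41.6, 20.1, 33.3 and 24.1 CPM in untreated and 27.9, 18.3, 20.6 and 19.98 CPM in treated libraries. WT 2 stands above the other WT libraries, which lie close together, and untreated library 1 comes nearest to them. On the log2 scale the difference was -0.85 (SE 0.22) untreated (adjusted p = 0.0102) and -1.30 (SE 0.22) treated (adjusted p = 0.0462).

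Mid1ip1 (chrX:10715013-10719690), which binds acetyl-CoA carboxylase and promotes fatty acid synthesis, was higher by less. It was at 41.8, 33.99, 30.3 and 36.3 CPM in WT, 49.3, 43.5, 40.5 and 44.1 CPM in untreated and 59.8, 60.9, 56.4 and 70.7 CPM in treated libraries. WT 1 reaches into the range of the untreated group, while the treated libraries lie above all others. The log2 fold change was 0.32 (SE 0.11) untreated (adjusted p = 0.0383) and 0.80 (SE 0.11) treated (adjusted p = 0.0191). Zbtb7c, a zinc finger transcription factor, was at 6.45 to 8.11 CPM in WT, 9.18 to 10.1 CPM in untreated and 11.3 to 15.2 CPM in treated libraries, with log2 fold changes of 0.36 and 0.81.

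A list of 23 insulin-responsive metabolic genes, put together after these values were seen, held 4 of the 17 genes (0.106% of all tested genes). They were Angptl8 and Mid1ip1 among the higher, and Pdk4 and Grb14 among the lower. As the 17 genes were known when the list was made, this count is not a test. In the pooled test 5 of the 23 were higher and 6 lower (6.84 and 8.07% of all tested genes). A list of 20 leptin and insulin signalling genes held only Grb14. In that list the pooled test passed for 4 genes higher and 5 lower (6.84 and 8.07% of all tested genes). Stat3, the transcription factor that carries the leptin signal, was at 132, 107, 106 and 109 CPM in WT, 179.6, 189, 186 and 164 CPM in untreated and 150.4, 154, 144 and 126 CPM in treated libraries (pooled log2 fold change 0.50, adjusted p = 0.00558). Socs3, an inhibitor of leptin receptor signalling, had a pooled log2 fold change of 1.40 (adjusted p = 0.00708), with 1.98 untreated and 0.81 treated. Neither gene passed in the treated group on its own (adjusted p = 0.226 for Stat3 and 0.324 for Socs3).

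**Figure D2:**
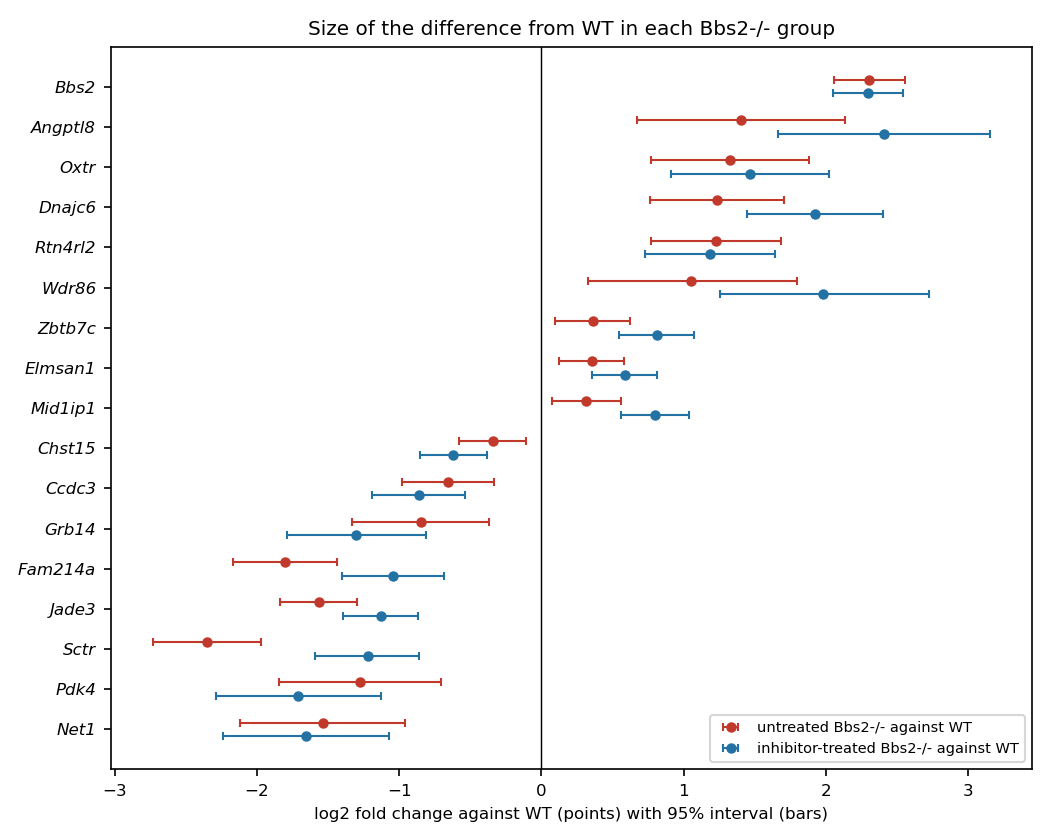
log2 fold change against WT (x axis) of the 17 genes in untreated (red) and treated (blue) Bbs2-/- libraries, 4 against 4 each, with 95% intervals as bars. Every interval lies on 1 side of 0, which the choice of genes fixes. The paired points of Bbs2 (2.31 and 2.30) coincide, while those of Sctr (-2.35 and -1.22) and Angptl8 (1.40 and 2.41) lie apart.

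Of the receptors among the 17, Oxtr (chr6:112473683-112489943), the oxytocin receptor, was at 105, 53.2, 62.3 and 139 CPM in WT, 187, 231, 246 and 237 CPM in untreated and 275, 257, 213 and 247 CPM in treated libraries. WT 1 and WT 4 are higher than WT 2 and WT 3, and they are also the WT libraries with the most Foxj1 counts. Oxtr passed in both groups without the 4 libraries with Foxj1 counts, as Bbs2 did, but kept its call in only 1 of 12 fits that left out 1 library. The difference from WT on the log2 scale was 1.33 (SE 0.25) untreated (adjusted p = 0.00185) and 1.47 (SE 0.25) treated (adjusted p = 0.0462).

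Sctr (chr1:120006894-120063536), the secretin receptor, which stimulates fat breakdown in fat cells, had the largest decrease of the 17 in the untreated group. It was at 17.5, 22.2, 18.5 and 13.5 CPM in WT, 4.02, 3.51, 3.34 and 3.16 CPM in untreated and 9.47, 7.30, 6.56 and 7.34 CPM in treated libraries. The groups form separate levels, with the treated libraries between the other groups. Relative to WT, the log2 fold change came to -2.35 (SE 0.18) untreated (adjusted p = 1.67e-05) and -1.22 (SE 0.17) treated (adjusted p = 0.0191). Rtn4rl2, a member of the Nogo receptor family, was higher at a low level: 1.47 to 2.59 CPM in WT and 3.81 to 5.39 CPM over the 8 Bbs2-/- libraries. Its log2 fold changes were 1.23 untreated and 1.18 treated (adjusted p = 0.000940 and 0.0473).

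Vesicle and cytoskeleton genes were represented by 1 higher and 1 lower gene. Dnajc6 (chr4:101496648-101642799) encodes auxilin, which strips clathrin from endocytic vesicles. It was at 3.49, 3.24, 5.24 and 5.70 CPM in WT, 12.2, 10.9, 9.38 and 9.16 CPM in untreated and 19.6, 17.2, 18.5 and 11.6 CPM in treated libraries. All 8 Bbs2-/- libraries are above all WT libraries, and 3 of the 4 treated libraries are above all untreated ones. On the log2 scale the difference was 1.23 (SE 0.22) untreated (adjusted p = 0.00111) and 1.92 (SE 0.22) treated (adjusted p = 0.00721).

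Net1 (chr13:3882018-3918220), an exchange factor that activates the small GTPase RhoA, was lower. It was at 136, 209, 169 and 166 CPM in WT, 71.5, 53.3, 60.8 and 48.7 CPM in untreated and 42.7, 29.7, 82.03 and 61.4 CPM in treated libraries. Treated library 3 is the highest of the Bbs2-/- libraries and still lies below WT 1, the lowest of WT. The log2 fold change was -1.54 (SE 0.27) untreated (adjusted p = 0.00109) and -1.65 (SE 0.27) treated (adjusted p = 0.0379).

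Among genes of chromatin, Jade3 (chrX:20425688-20519939), an X-linked subunit of histone acetyltransferase complexes, was lower. It was at 22.2, 23.3, 22.3 and 25.5 CPM in WT, 7.94, 7.95, 7.84 and 7.74 CPM in untreated and 10.1, 11.98, 12.2 and 8.34 CPM in treated libraries. The untreated libraries are nearly equal, and the treated ones lie slightly above them. The difference from WT on the log2 scale was -1.57 (SE 0.12) untreated (adjusted p = 2.05e-05) and -1.13 (SE 0.12) treated (adjusted p = 0.00582). Elmsan1, a scaffold of a histone deacetylase complex, was higher by 0.35 and 0.59 on the log2 scale, with 30.9 to 41.4 CPM in WT and 43.3 to 58.7 CPM in the 8 Bbs2-/- libraries.

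Of the secreted and matrix genes, Ccdc3, a protein released by fat cells and endothelium, was at 140.1 to 213 CPM in WT and 80.9 to 122 CPM in the 8 Bbs2-/- libraries. Chst15, which adds sulfate to chondroitin chains, was at 45.05 to 55.8 CPM in WT and 28.8 to 44.3 CPM in the Bbs2-/- libraries, so its groups nearly touch. Their log2 fold changes in untreated and treated libraries were -0.66 and -0.86 for Ccdc3 and -0.34 and -0.62 for Chst15. Fam214a (chr9:74952884-75032468) was at 112, 112, 107 and 93.4 CPM in WT, 35.5, 24.8, 32.3 and 29.2 CPM in untreated and 40.4, 42.6, 54.7 and 68.6 CPM in treated libraries. It was lower by a log2 fold change of -1.80 untreated (adjusted p = 4.86e-05) and -1.04 treated (adjusted p = 0.0288), and every Bbs2-/- library is below every WT library. Wdr86, a WD repeat protein, was at a low level, with 0.327 to 0.743 CPM in WT and 0.773 to 2.89 CPM in Bbs2-/- libraries.

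The test of treated against untreated Bbs2-/- asks whether the size of the difference depends on the drug. It passed for 8 of the 17 genes, where 37.2% of all tested genes passed. Angptl8, Dnajc6, Wdr86, Zbtb7c and Mid1ip1 lay farther from WT in the treated group, by 1.01, 0.69, 0.92, 0.45 and 0.48 on the log2 scale. Fam214a, Jade3 and Sctr lay nearer to WT in the treated group, by 0.76, 0.44 and 1.13 (adjusted p = 0.00387, 0.0147 and 0.000494). The other 9 genes did not pass, and each of their 95% intervals for treated minus untreated lies inside -1 to 1. The intervals leave room for drug-dependent differences in some of them: that of Pdk4 was -0.9996 to 0.13, that of Net1 -0.69 to 0.45 and that of Oxtr -0.40 to 0.68. For Elmsan1 (0.01 to 0.46) and Chst15 (-0.51 to -0.04) the interval does not hold 0, although the adjusted p was 0.0976 and 0.0643.

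How far each call rests on single libraries differs between the genes. Bbs2 kept its call in 25 of 25 other settings, Jade3 in 21 and Dnajc6 in 20, and these 3 kept it when any 1 library was left out. Sctr kept its call in 18, Angptl8 in 16, Mid1ip1 in 14, Pdk4 in 13, Fam214a in 12, Net1 and Zbtb7c in 10, and Ccdc3 and Grb14 in 9. Oxtr kept it in 8, Rtn4rl2 in 6, Wdr86 in 6 of 24, and Chst15 and Elmsan1 in 5. None of the 17 changed direction in any of these settings. Without WT 2, 3 genes passed in both groups (Dnajc6, Bbs2 and Jade3), without WT 3 4 and without WT 4 7. Without WT 1 there were 32, of which 12 are among the 17. Leaving out 1 untreated library gave 8 to 11 genes, and leaving out treated library 1, 2, 3 or 4 gave 6, 4, 22 and 16. Without WT 2 and WT 3 together, or with each group set against WT in a fit of its own, only Bbs2 passed. With the macrophage level as a covariate 5 genes passed: Sctr, Bbs2, Jade3, Acta2 and Acta1. In that fit the untreated log2 fold change of Net1 was -0.44. The summed macrophage level of untreated libraries does not overlap that of the others, so that fit cannot tell it apart from the untreated group.

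A wider rule, added after the data were seen, asked for the pooled adjusted p under 0.05 and an unadjusted p under 0.05 on the same side in each group. It took in 686 genes (4.3%), 311 higher (1.95%) and 375 lower (2.35%), and it does not control errors in each group. Its genes outside the 17, with no overlap of libraries, were ranked by the smaller of their 2 log2 fold changes. From the 10 largest in either direction a few, chosen after their values were seen, follow. None of them passed in the treated group on its own, with adjusted p in edgeR's test from 0.0515 (Tsku) to 0.322 (Sfrp1). Tsku, a secreted leucine-rich protein, was at 6.57 to 8.31 CPM in WT and 11.6 to 22.04 CPM in Bbs2-/- libraries (pooled 1.18, adjusted p = 0.00417). Sfrp1, a secreted Wnt inhibitor of fat tissue, had log2 fold changes of 2.47 untreated and 1.30 treated (pooled 1.88, adjusted p = 0.0149). Cdkn2b, an inhibitor of cyclin-dependent kinases, was at 7.90, 10.3, 10.3 and 11.5 CPM in WT, 21.1, 17.8, 19.1 and 24.1 CPM in untreated and 15.01, 22.98, 15.3 and 19.8 CPM in treated libraries. Its pooled log2 fold change was 0.95 (adjusted p = 0.00400), and the treated group alone did not pass (adjusted p = 0.0617). As no overlap of libraries was a condition for these genes, it is no further support.

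Among the lower genes of that rule, Fam13a, a gene tied to body fat distribution in people, was at 109, 122, 175 and 118 CPM in WT, 23.5, 15.4, 27.5 and 13.7 CPM in untreated and 24.6, 24.7, 49.96 and 67.6 CPM in treated libraries. Its pooled log2 fold change was -2.18 with an SE of 0.28 (adjusted p = 0.00227). Cidea, a lipid droplet protein of fat cells, was lower by a like amount in both groups (-1.45 and -1.38). It stood at 12.4, 13.8, 22.3 and 20.7 CPM in WT, 9.90, 4.40, 5.49 and 5.48 CPM in untreated and 8.85, 5.88, 6.72 and 5.09 CPM in treated libraries, so the lowest WT library lies just above the highest Bbs2-/- library. Slc43a1, an amino acid transporter, was at 17.7 to 34.6 CPM in WT and 5.21 to 16.8 CPM in Bbs2-/- libraries (pooled -1.48, adjusted p = 0.00274). P2rx1, an ATP-gated channel of smooth muscle, was at 31.6, 3.72, 5.90 and 5.06 CPM in WT and 1.05 to 2.31 CPM in Bbs2-/- libraries. WT 1 carries much of its pooled log2 fold change, which was -2.75 with it (adjusted p = 0.00591) and -1.51 without it.

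Gene lists show which groups of genes were displaced in both Bbs2-/- groups and which in 1. Of 26 mature fat cell genes, 17 were lower in the pooled test (8.07% of all tested genes), but the list's median log2 fold change was -1.35 untreated and -0.08 treated, beside -0.02 and -0.02 over all tested genes. By the wider rule 4 of the 26 were lower (2.35% of all tested genes): Cidea, Fabp4, Aqp7 and Pnpla2. Pnpla2, the lipase that starts fat breakdown, was at 1213, 2089.8, 2042 and 2322 CPM in WT, 650.5, 509, 717 and 581 CPM in untreated and 1092, 892, 1158 and 1965 CPM in treated libraries. The treated libraries span from the level of the untreated to that of WT. Of 20 macrophage genes 7 were higher in the pooled test (6.84% of all tested genes) and 1, Cx3cr1, by the wider rule (1.95%). The medians were 2.47 untreated and -0.29 treated, and the treated median was 0.19 without WT 1 and 0.33 without the 4 libraries with Foxj1 counts. Of 40 inflammatory mediators 17 were higher in the pooled test (6.84% of all tested genes), with medians of 1.62 and 0.14.

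**Figure D3:**
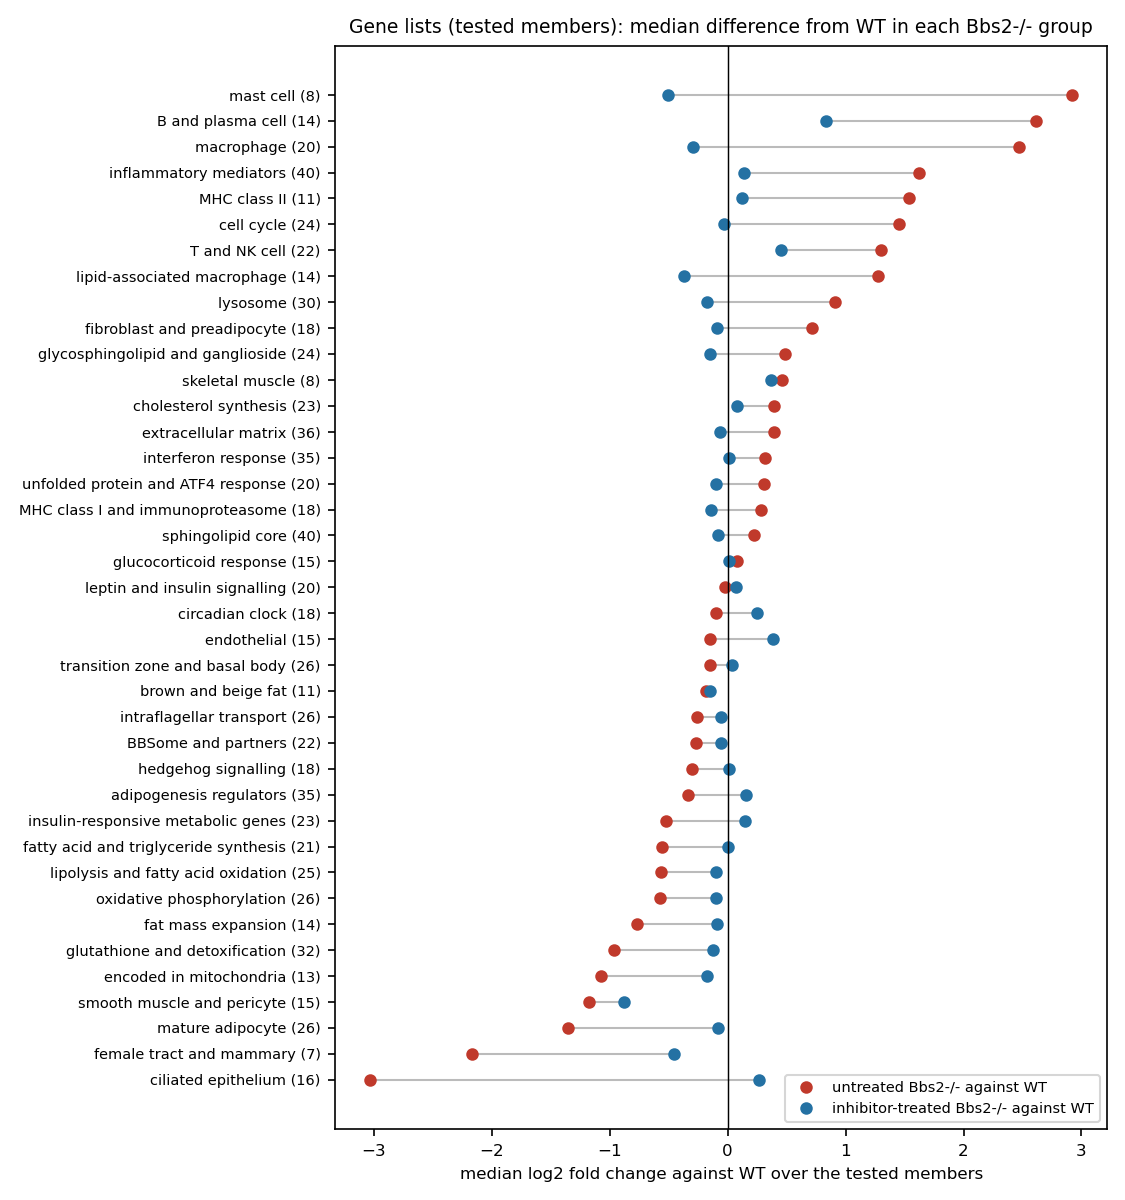
Median log2 fold change against WT (x axis) of each gene list with at least 5 tested members (number in brackets), for untreated (red) and treated (blue) Bbs2-/- libraries, joined by a grey line. For most lists far from 0 the red and blue points lie apart, as for macrophage (2.47 and -0.29), while for smooth muscle and pericyte (-1.18 and -0.88) both lie below 0. Without WT 1 the treated medians of these lists were 0.19 and -0.54.

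In the lists of cilium genes, 1 gene of each met the wider rule, near the 4.3% of all tested genes. Of 22 BBSome genes and partners only Bbs2 met either rule, and together these genes reached 301.7 to 310.4 CPM in WT, 297.7 to 316.5 CPM in untreated and 312.3 to 366.7 CPM in treated libraries. Of 26 genes of transport along the cilium, Kifap3, a subunit of a kinesin motor, was lower by the wider rule (36.7 to 40.8 CPM in WT against 30.2 to 35.7 CPM in Bbs2-/-). Of 26 genes of the ciliary base, Cep164 was higher (13.8 to 21.8 against 17.2 to 29.03 CPM). Of 18 hedgehog genes, Ptch1, the receptor for hedgehog ligands, was lower. It was at 52.7, 65.5, 47.04 and 42.1 CPM in WT, 15.9, 21.8, 24.5 and 21.7 CPM in untreated and 33.8, 34.7, 42.9 and 31.7 CPM in treated libraries, and the treated group reached into WT. No gene of the 40 in the sphingolipid list or the 24 in the glycosphingolipid list met the wider rule, where lists of this size would hold few at the 4.3% of all tested genes. Ugcg, which encodes the drug's target enzyme, had a pooled log2 fold change of 0.38 (adjusted p = 0.0743).

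Among regulators of fat cell formation (35 genes), Cebpb, Zfp467 and Sfrp1 were higher and Gata3 lower by the wider rule (1.95 and 2.35% of all tested genes). Gata3, a factor that holds back fat cell formation, was at 25.9, 1.62, 0.663 and 0.523 CPM in WT and 0.653 to 1.68 CPM in Bbs2-/- libraries, so WT 1 alone is high and the other WT libraries overlap Bbs2-/-. Cebpb, a transcription factor that acts early in fat cell formation, was at 14.6, 18.6, 17.8 and 19.7 CPM in WT, 45.3, 35.7, 27.5 and 49.4 CPM in untreated and 25.6, 40.3, 23.7 and 28.4 CPM in treated libraries. None of the Bbs2-/- libraries reached down to WT (pooled 0.95, adjusted p = 0.00834). In the list of 23 cholesterol synthesis genes, Cyp51 and Insig1 were among those higher by the wider rule (1.95% of all tested genes). Cyp51, an enzyme of the last steps, was at 18.4 to 23.6 CPM in WT, 32.4 to 36.3 CPM in untreated and 24.8 to 28.05 CPM in treated libraries.

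Of 15 smooth muscle and pericyte genes, a list added after the data were seen, 9 were lower and none higher by the wider rule (2.35 and 1.95% of all tested genes). Its summed level was 3830, 2065, 2244 and 2334 CPM in WT, 1093, 1371, 1336 and 1121 CPM in untreated and 1741, 2023, 1685 and 1479 CPM in treated libraries, so the groups do not overlap. Acta2, the actin of smooth muscle, was at 519, 319, 309 and 335 CPM in WT, 83.7, 145, 91.99 and 107 CPM in untreated and 248, 219, 136 and 150.1 CPM in treated libraries (pooled -1.39, adjusted p = 0.00325). WT 1 is the highest library for several of these genes, and it also has the highest sum of the epididymis and male tract list. Myh11, the myosin of smooth muscle, was at 697, 67.4, 112 and 112 CPM in WT and 30.7 to 85.8 CPM in Bbs2-/- libraries. Without WT 1, 7 of the 15 were lower by the rule (815 of 16305 tested genes). Without WT 2 and WT 3 it was 6 (51 of 16877), and without the 4 libraries with Foxj1 counts 1 (376 of 16260). With the macrophage level, which itself sets the untreated group apart, as a covariate 1 was lower (23 of 15968). The list's medians in that fit were -2.39 untreated and -0.78 treated, beside -1.18 and -0.88 in the main fit. The treated median of the list, -0.88, was -0.54 without WT 1 and -0.32 without the 4 libraries with Foxj1 counts.

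Position was examined because genes beside a targeted gene travel with it in mice of mixed background. None of 321 other tested genes within 20 Mb of Bbs2 was among the 17 (0.106% of all tested genes), and no window of 10 Mb anywhere held more than 1 of them. At that share any such region would hold few or none, so these counts say little about position. By the wider rule, 5 of 35 other genes within 1 Mb were called (14.3%), and 15 of 321 within 20 Mb (4.67%), beside 4.3% of all tested genes. The 5 were Nlrc5, higher, and Ogfod1, Ciapin1, Adgrg5 and the predicted gene Gm45767, lower. They were chosen by position and this rule after values were seen. Nlrc5, an activator of MHC class I genes, was at 26.7, 24.2, 21.4 and 22.1 CPM in WT, 40.5, 35.8, 41.1 and 29.5 CPM in untreated and 28.2, 28.3, 40.7 and 26.9 CPM in treated libraries. Ciapin1, an iron-sulfur protein, was at 24.4 ± 2.35 CPM (SD, n = 4) in WT and 15.1 to 23.4 CPM in Bbs2-/- libraries, and untreated library 1 overlaps WT. The strain origin of this region and the genotype label cannot be told apart. On chromosome 8, which holds Bbs2, 51 of 847 tested genes met the wider rule (6.02%), beside 4.3% of all tested genes. The other autosomes ranged from 3.01% (chromosome 3) to 6.21% (chromosome 16), the only autosome above chromosome 8. Whether chromosome 8 differs from them was not tested, and a share over a whole chromosome can hide a smaller region. Of the 51, 13 lie in the 10 Mb window that starts at 70 Mb, which held 122 tested genes. That is the highest count of any window. Another 7 lie in the window from 90 Mb that holds Bbs2, among 65 tested genes. Both shares are above the 4.3% of all tested genes, and the excess was not tested.

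**Figure D4:**
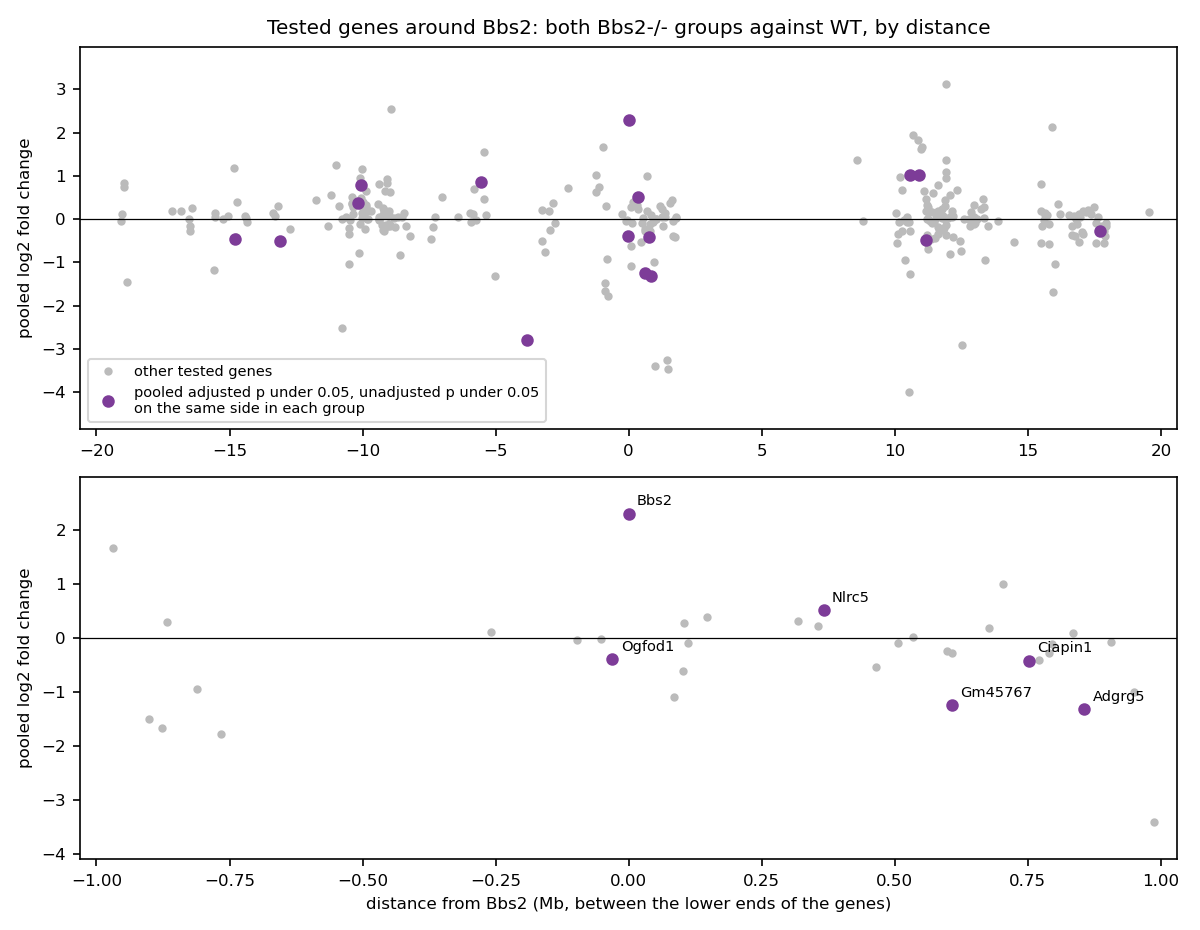
Pooled log2 fold change of both Bbs2-/- groups against WT (y axis) by distance from Bbs2 in Mb (x axis, between the lower ends of the genes), over 20 Mb on either side (upper) and 1 Mb (lower). Purple points met the wider rule, grey ones are the other tested genes. Bbs2 (2.30) is the highest point in the lower plot, where the 5 other purple points lie between -1.31 and 0.52.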

How the data were processed

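Per the labels' protocols, RNA from TRIzol extraction and RNeasy clean-up went into TruSeq Stranded mRNA libraries. The authors deposited a table of estimated counts per gene, unscaled, and a table of log2 FPKM values. Per the submitters' processing notes, reads were placed on mm10. Not given in the sources used here are the aligner, the counting tool and its strand setting. Of 53431 gene identifiers, 52207 matched the GENCODE annotation of that build. Totals were 16317865 to 20224200 estimated counts per library, which limits precision for genes near 1 CPM.

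After rounding, expected counts were tested in R 4.3.3 by the robust quasi-likelihood test of edgeR 4.0.16, with TMM scaling and the filterByExpr filter by group. All 12 libraries entered 1 fit with group as its only term. The pooled contrast was the mean of both Bbs2-/- groups minus WT, so each group has equal weight. Benjamini-Hochberg adjustment ran over all 15968 tested genes, with a threshold of 0.05. The common coefficient of biological variation came to 0.29. Chi-square per degree of freedom between 2 libraries of a group was 17.8 to 84.9, far above sampling noise. The procedure was tested on simulated data.

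The comparison, the 38 gene lists, the rules and the tests were chosen with earlier results of these data known, and 2 more lists and the wider rule were added after these values were seen. By the naming rule, genes passing in both groups on the same side, without overlap of libraries and with mean log2 CPM at or above 1, are named, up to 15 in each direction; 15 were. Wdr86 and Mid1ip1, the list members and the genes beside Bbs2 were named after their values were seen. Alternatives were DESeq2 1.42.0, limma 3.58.1 on counts (voom) and on the log2 FPKM values, other scalings and filters, a replicate block, the macrophage level as covariate, leaving out libraries, and a log2 fold change threshold of 1. Values of single genes are in part not reported here, while all counts include every tested gene.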

Additional observations from a re-analysis of the deposited data

Results flagged for a closer look

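In 9 of 120 groups of 4 libraries examined, 1 library stood apart from the other 3, where chance gives about 1 in 20. The groups came from genes chosen by the rules above and from list sums. They are not independent, as the smooth muscle sum holds Acta2 and Tagln, so the comparison with chance is not a test. WT 1 was high for P2rx1 (31.6 CPM), Tagln (237 CPM), Acta2 (519 CPM) and the summed smooth muscle and pericyte genes (3830 CPM). The pooled log2 fold change of Tagln, an actin-binding protein of smooth muscle, was -1.12 with WT 1 and -0.65 without it. WT 2 was high for Grb14 (69.1 CPM), and untreated library 2 for Gdf11 (6.27 CPM), a growth factor of the TGF-beta family. Among treated libraries, library 1 was high for the cytokine Lif (7.35 CPM), library 3 for the transcription factor Grhl1 (13.8 CPM) and library 4 for the neurotrophin receptor Ntrk3 (12.4 CPM).

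For 8 of the 17 genes that differed from WT in both Bbs2-/- groups, the size of the difference itself differed between treated and untreated libraries in edgeR's test. The treated minus untreated log2 fold change was 1.01 for Angptl8, 0.69 for Dnajc6, 0.92 for Wdr86, 0.45 for Zbtb7c and 0.48 for Mid1ip1, all higher than WT in both groups. It was 0.76 for Fam214a, 0.44 for Jade3 and 1.13 for Sctr, all lower than WT in both groups.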

How the results depend on the processing

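Leaving out 1 library gave 814 to 4292 genes for the pooled contrast, 4951 to 7212 for untreated against WT, 3 to 49 for treated against WT, 4614 to 6611 for treated against untreated, and 3 to 32 on the same side in both groups. With a minimum log2 fold change of 1 these counts were 508, 2590, 21, 2473 and 11, since fewer genes can pass. With the macrophage level as a covariate they were 70, 48, 75, 2 and 5. The summed macrophage level of every untreated library (7102 to 9892 CPM) lay above that of all other libraries (at most 3003 CPM). This covariate therefore largely repeats the untreated group, and that fit cannot tell macrophage level and group apart. Without WT 2 and WT 3 the pooled, untreated, treated and same-side counts were 93, 3417, 1 and 1. Leaving out the 4 libraries with Foxj1 counts, which takes out WT 1 and WT 4, gave a pooled count of 2124. The pooled count was 3 with the 8 Bbs2-/- libraries as 1 group. The treated count was 281 and the same-side count 139 with DESeq2, which held all 17 genes. Without the 4 libraries with Foxj1 counts both counts were 2, and with each contrast on its own groups they were 2 and 1. Without WT 1, treated 1 and treated 3 (an alternative chosen after seeing the data) they were 5 and 5. The same-side count was 31 with library size only and 28 on log2 FPKM. It was 686 by the wider rule and 313 by no overlap of libraries, both chosen after seeing the data. Within 20 Mb of Bbs2 the count rose from 1, Bbs2 itself, to 19 with unadjusted p in both contrasts. Apart from Bbs2 it was 18 of 321 (5.61%), near the 5.05% of all tested genes by the same rule. The cause was not tested for the other changes.

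Same-numbered libraries of different groups correlated at -0.149 to 0.308, with 4 of 12 over 0.1. Between untreated and treated libraries alone they were 0.0999 to 0.308, while the pairs with WT held values below 0. The numbers were therefore not taken as pairing. With the replicate block the treated count was 9 and the same-side count 5 (Sctr, Dnajc6, Bbs2, Mid1ip1 and Jade3). Depth limits what can be seen of genes at few counts, such as Wdr86, and low counts cannot show that a gene does not differ. Fewer libraries in a fit also leave fewer degrees of freedom.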
